A study of Mus musculus with 10 samples.

Results

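The genes described here are 10 neuropeptide precursor genes, *Npy*, *Sst*, *Penk*, *Pdyn*, *Tac1*, *Cck*, *Nts*, *Grp*, *Gal* and *Calca*, chosen by name as the precursors known from spinal cord and sensory ganglia, among 54146 genes of a count table from embryonic mouse spinal cord. All 10 passed the expression filter, which kept 19773 genes, so all 10 were detected at E12.5. RNA from the lumbar spinal cord of 10 single embryos was sequenced, and by the labels the tissue still held its dorsal root ganglia. The 5 *Dot1l*-cKO embryos carried the transgene and both floxed alleles (Wnt1cre2/+; Dot1lfl/fl), and the 5 controls carried no transgene. Litter 1 held 3 controls (+/+; Dot1lfl/fl) and 3 *Dot1l*-cKO embryos, and litter 2 held 2 controls (+/+; Dot1lfl/+) and 2 *Dot1l*-cKO embryos. All were on the background that the labels name B6.Cg-E2f1Tg(Wnt1-cre)2Sor/J. The Wnt1-cre2 driver is active in the dorsal neural tube and in the neural crest, from which the ganglion neurons arise. No embryo carried the transgene without the loss of *Dot1l*, and the number of floxed alleles in the controls changed with the litter.

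Neuropeptides are made as long precursor proteins. After the signal peptide is removed, prohormone convertases cut at pairs of basic residues, carboxypeptidase E trims these residues, and a glycine at the new end is turned into an amide by the enzyme encoded by *Pam*. The peptides are stored in dense core vesicles and act on G protein-coupled receptors. In the mature dorsal horn, *Npy*, *Sst*, *Penk*, *Pdyn*, *Tac1*, *Nts*, *Grp* and *Cck* mark classes of interneurons, and *Calca*, *Tac1* and *Gal* are also known from sensory neurons of the ganglia. At E12.5 many of these neurons are young or not yet born.

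The stretches below show, for 7 of the 10 genes, where the released peptide lies in its precursor, since these are the products whose mRNA was counted. They were read from the GENCODE M21 transcripts (GRCm38), with the codons of the cleavage pairs, and of the glycine that gives the amide where there is one, in capitals.
Tac1 (chr6:7556732-7556773, + strand, substance P): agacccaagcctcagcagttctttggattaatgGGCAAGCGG
Npy (chr6:49823682-49827501, + strand, 2 exons, neuropeptide Y): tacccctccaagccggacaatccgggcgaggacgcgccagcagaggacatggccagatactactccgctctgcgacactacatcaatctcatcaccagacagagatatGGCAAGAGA
Gal (chr19:3411592-3413340, - strand, 2 exons, galanin): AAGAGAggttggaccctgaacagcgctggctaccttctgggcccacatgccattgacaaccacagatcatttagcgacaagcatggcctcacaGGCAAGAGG
Sst (chr16:23889732-23889779, - strand, the short somatostatin): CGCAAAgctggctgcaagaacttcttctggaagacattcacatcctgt
Nts (chr10:102482349-102482399, - strand, neurotensin): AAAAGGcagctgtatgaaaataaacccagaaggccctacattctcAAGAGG
Penk (chr4:4134328-4134354, - strand, Met-enkephalin): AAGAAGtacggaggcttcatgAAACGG
Cck (chr9:121490098-121490130, - strand, the octapeptide): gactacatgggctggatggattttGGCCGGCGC
The opioid core Tyr-Gly-Gly-Phe occurred 7 times in the 268 residues of the *Penk* precursor and 3 times in the 248 residues of the *Pdyn* precursor, and in none of the other 8 precursors. *Tac1* encoded Gly-Lys-Arg at 2 places, after substance P and after a second peptide, and *Npy*, *Gal* and *Nts* encoded it once. The counts were made per gene, so they do not separate transcripts of *Calca* for calcitonin from those for CGRP, or the spliced forms of *Tac1*.

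The total of counted reads lay between 40949585 and 61194291 in controls and between 54870771 and 68928443 in *Dot1l*-cKO embryos. *Dot1l* itself ranged from 87.6 to 107 CPM in controls and from 97.8 to 112 CPM in *Dot1l*-cKO embryos, where CPM is the count relative to the TMM-scaled library size, and its log2 fold change of 0.17 (SE 0.06) did not pass (adjusted p = 0.130, edgeR quasi-likelihood F-test, Benjamini-Hochberg). Counts over the whole gene include exons outside the deleted part and do not check the genotype. Both *Dot1l*-cKO embryos of litter 2 stood apart in sex-linked genes, with 340 to 408 counts of *Xist* against 24777 to 54385 in the other 8 embryos, and 2496 to 2647 counts of *Ddx3y* against 0 to 17. In litter 2, sex and genotype therefore cannot be told apart. Markers of spinal cord neurons, progenitors and ganglion neurons were all expressed, and all 12 markers of ganglion neurons, among them *Avil* and *Scn10a*, passed the filter. In whole tissue, fewer cells that express a gene and less RNA per cell cannot be told apart.

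The levels of the 10 genes spanned more than 2 orders of magnitude. *Npy* and *Sst* were the most abundant per length, at a mean of 85.4 RPKM (range 37.9 to 127 over 10 embryos) and 55.1 RPKM (36.4 to 80.9), where RPKM is CPM divided by the length of the exons in kilobases. *Npy* stood above 97.8% of the tested protein-coding genes in mean RPKM, and *Sst* above 95.5%. *Gal* followed at 21.8 RPKM (4.17 to 38.5), then *Pdyn* at 8.09 (6.37 to 10.2), *Penk* at 5.62 (2.27 to 9.67) and *Tac1* at 4.31 (1.78 to 9.31). *Nts* (1.34 RPKM, 0.319 to 2.17), *Calca* (1.13, 0.777 to 2.01), *Grp* (0.466, 0.175 to 0.755) and *Cck* (0.259, 0.150 to 0.404) were low, and *Cck* stood above only 10.9% of the tested protein-coding genes. The lowest count of any of the 10 genes in any embryo was 12, for *Cck*, so its values carry a large counting error.

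The order was the same in every embryo at 4 of its 9 steps. *Npy* was above *Sst*, *Sst* above *Gal*, *Tac1* above *Nts* and *Calca* above *Grp* in 10 of 10 embryos. The other neighbours crossed in at least 1 embryo. *Gal* was above *Pdyn* in 7 of 10 embryos, *Pdyn* above *Penk* and *Penk* above *Tac1* in 8 of 10, *Grp* above *Cck* in 9 of 10, and *Nts* above *Calca* in 5 of 10. *Gal* varied most between embryos, with its highest CPM 9.23 times its lowest, and *Pdyn* least, with a ratio of 1.59.

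**Figure D1:**
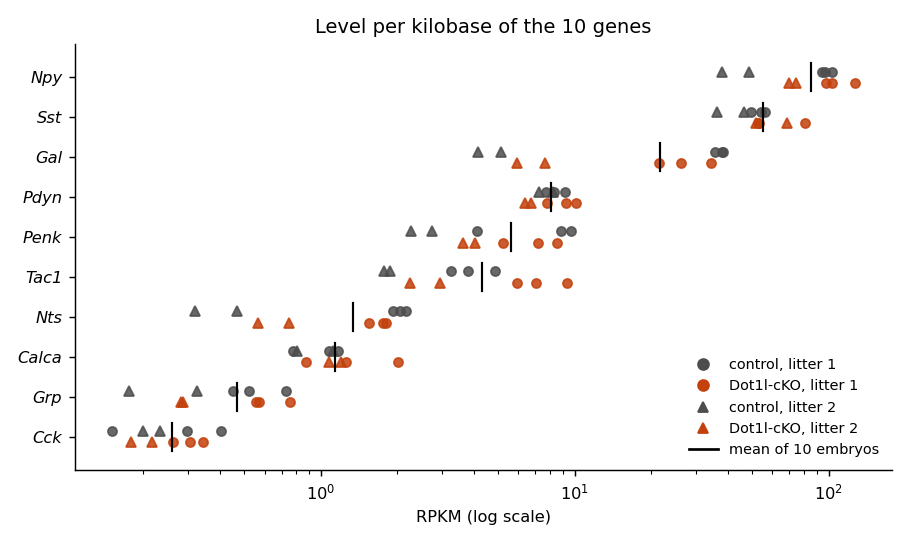
Level of each of the 10 genes in RPKM on a logarithmic axis, with 1 symbol per embryo (circles litter 1, triangles litter 2, grey controls, orange *Dot1l*-cKO) and a black bar at the mean of 10 embryos. Means run from 85.4 RPKM for *Npy* to 0.259 RPKM for *Cck*, and the triangles of *Gal* lie to the left of its circles.

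The first comparison asked whether the loss of *Dot1l* changed the precursor genes. *Tac1*, which encodes substance P and neurokinin A, was the only one of the 10 to pass, and it rose 1.69-fold in *Dot1l*-cKO. With both litters in 1 model, 1 of the 10 genes was called higher, beside 1.90% of all tested genes, and 0 of the 10 were called lower, beside 1.09% of all tested genes. At an unadjusted p under 0.05 the same test picked 3 of the 10, beside 21.7% of all tested genes, and DESeq2 called 2 higher, beside 8.30% of all genes called by it in either direction. The log2 fold change was above 0 for 8 of the 10 and for 47.97% of all tested genes, and its median was 0.16 over the 10 genes and -0.01 over all tested genes.

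*Tac1* (ENSMUSG00000061762.12, chr6:7554879-7565834) stood at 16.6, 12.9 and 11.1 CPM in controls 1 to 3 of litter 1 and at 31.7, 20.1 and 24.0 CPM in *Dot1l*-cKO embryos 1 to 3. In litter 2 it was at 6.35 and 6.05 CPM in controls 4 and 5 and at 7.64 and 10.0 CPM in *Dot1l*-cKO embryos 4 and 5. Within each litter every *Dot1l*-cKO embryo was above every control, and across the litters the groups overlapped, because every embryo of litter 2 was lower. This separation in both litters was seen for 1 of the 10 genes and for 3.80% of all tested genes, and the opposite one, all *Dot1l*-cKO embryos below all controls in both litters, for 0 of the 10 and 4.15% of all tested genes. The log2 fold change was 0.76 (SE 0.14, adjusted p = 0.0213, edgeR quasi-likelihood F-test, Benjamini-Hochberg). It was 0.91 in litter 1 alone (SE 0.18, adjusted p = 0.0823) and 0.52 in litter 2 alone (SE 0.16, adjusted p = 0.0819), and neither passed by itself. The call was lost without *Dot1l*-cKO embryo 1 (log2 fold change 0.63, adjusted p = 0.0503), control 3 (0.66, adjusted p = 0.0521) or *Dot1l*-cKO embryo 5 (0.74, adjusted p = 0.0769). It was also lost with *Xist* as a covariate, where the log2 fold change was 0.91 with an SE of 0.18 (adjusted p = 0.0631), and it was kept without both *Dot1l*-cKO embryos of litter 2 (log2 fold change 0.90, adjusted p = 0.0456).

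*Npy* (ENSMUSG00000029819.6, chr6:49822710-49829507) encodes neuropeptide Y, which in the dorsal horn belongs to inhibitory neurons. In litter 1 it stood at 54.8, 58.3 and 53.5 CPM in controls and at 72.2, 55.4 and 58.3 CPM in *Dot1l*-cKO embryos, and the genotypes overlapped. In litter 2 it was at 21.4 and 27.5 CPM in controls and at 39.7 and 42.2 CPM in *Dot1l*-cKO embryos, which did not overlap. The log2 fold change was 0.38 over both litters (SE 0.11, adjusted p = 0.0702) and 0.16 in litter 1 (SE 0.09, adjusted p = 0.476), neither of which passed. In litter 2 *Npy* rose 1.68-fold (log2 fold change 0.75, SE 0.11, adjusted p = 0.00211). *Npy* passed in 6 of 24 alternatives, litter 2 alone among them, and in 2 of 10 fits without a single embryo. Over both litters it passed with DESeq2 (adjusted p = 0.0126), with the ganglion markers as a covariate (0.0211), with no expression filter (2.8e-08) and without *Dot1l*-cKO embryo 2 (0.0407) or 3 (0.0334). With no expression filter the log2 fold change was 0.39 and the SE 0.06. It did not pass with limma-voom (adjusted p = 0.0953) or the robust edgeR test (0.1315), among others. With *Xist* as a covariate its log2 fold change was 0.11 (adjusted p = 0.681).

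*Sst* (ENSMUSG00000004366.4, chr16:23889573-23890958) encodes somatostatin, which in the dorsal horn marks mostly excitatory neurons. It stood at 39.2, 40.7 and 35.7 CPM in controls of litter 1 and at 38.5, 58.3 and 38.0 CPM in the *Dot1l*-cKO embryos, of which embryo 2 was high and the others lay among the controls. In litter 2 it was at 26.2 and 33.5 CPM in controls and at 37.5 and 49.7 CPM in *Dot1l*-cKO embryos, without overlap. The log2 fold change was 0.35 over both litters (SE 0.13, adjusted p = 0.130) and 0.23 in litter 1 (SE 0.15, adjusted p = 0.542). In litter 2 *Sst* rose 1.47-fold (log2 fold change 0.55, SE 0.13, adjusted p = 0.0313).

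Of the 10 genes, 2 were thus called higher in litter 2 alone, beside 3.98% of all tested genes, and 0 lower, beside 1.16%. The count of 2 became 1 without control 4 or without *Dot1l*-cKO embryo 5. Markers of other cells were called higher in *Dot1l*-cKO of litter 2 as well, 5 of 12 of ganglion neurons, 4 of 6 of neural crest glia, 3 of 6 of blood and 2 of 6 of mesenchyme, with 0 of 4 of endothelium and 0 of 4 of macrophages and microglia. Among the lists of spinal cord cells, 3 of 12 genes of dorsal excitatory neurons, 2 of 15 of dorsal inhibitory neurons, 2 of 7 of motor neurons, 1 of 5 of progenitors and 0 of 5 general neuron markers were called higher, and 0 genes of any of these lists were called lower. The part of any of these cells in the values of *Npy* and *Sst* was not tested. The summed level of the blood markers was 1296 to 1415 CPM in controls and 1592 to 1996 CPM in *Dot1l*-cKO embryos, that of the mesenchyme markers 592 to 685 CPM against 831 to 876 CPM, and that of the glial markers 690 to 723 CPM against 701 to 703 CPM. In litter 1 alone 0 of the 10 were called in either direction, beside 0.0623% of all tested genes. At an unadjusted p under 0.05 there were 2 of the 10 and 14.1% of all tested genes. Whether sex had a part in the litter 2 values was not tested, since both of its *Dot1l*-cKO embryos stood apart in the sex-linked genes.

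The opioid precursors did not pass between genotypes. *Penk* (ENSMUSG00000045573.9, chr4:4133531-4138819), the precursor of the enkephalins, was at 15.8, 14.4 and 6.74 CPM in controls of litter 1 and at 11.7, 13.9 and 8.53 CPM in its *Dot1l*-cKO embryos. In litter 2 it was at 3.70 and 4.48 CPM in controls and at 6.62 and 5.92 CPM in *Dot1l*-cKO embryos. The genotypes overlapped in litter 1, where control 3 was low, and did not overlap in litter 2. The log2 fold change was 0.16 over both litters (SE 0.22, adjusted p = 0.725), -0.11 in litter 1 (SE 0.28) and 0.63 in litter 2 (SE 0.17, adjusted p = 0.0518). An annotated antisense gene, A830012C17Rik, overlaps *Penk* with 0 to 10 counts per embryo, and without the strand setting of the counting its reads cannot be told from those of *Penk*.

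*Pdyn* (ENSMUSG00000027400.11, chr2:129686565-129699844), the precursor of the dynorphins, varied little. It ranged from 22.2 to 26.4 CPM in controls of litter 1 and from 22.5 to 29.3 CPM in the *Dot1l*-cKO embryos of that litter, and stood at 20.9 and 23.6 CPM in controls of litter 2 and at 18.4 and 19.5 CPM in the *Dot1l*-cKO embryos of litter 2. These last were the lowest of all 10 embryos. The log2 fold change between genotypes was -0.02 (SE 0.09, adjusted p = 0.911) over both litters and -0.23 in litter 2 (SE 0.10, adjusted p = 0.211).

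For galanin and neurotensin the *Dot1l*-cKO embryos stood on opposite sides of the controls in the litters. *Gal* (ENSMUSG00000024907.6, chr19:3409915-3414544) was at 30.1, 28.2 and 30.3 CPM in controls of litter 1 and at 27.1, 20.7 and 17.0 CPM in its *Dot1l*-cKO embryos, which were all lower. In litter 2 it was at 3.29 and 4.05 CPM in controls and at 4.66 and 6.02 CPM in *Dot1l*-cKO embryos, which were both higher. *Nts* (ENSMUSG00000019890.4, chr10:102481756-102490486), the precursor of neurotensin, was at 2.70, 2.57 and 2.41 CPM in controls of litter 1 against 2.25, 2.18 and 1.94 CPM in *Dot1l*-cKO embryos, and at 0.398 and 0.582 CPM against 0.706 and 0.932 CPM in litter 2. The pattern of *Gal* and *Nts*, all *Dot1l*-cKO embryos below all controls in litter 1 and above them in litter 2, was shared by 2 of the 10 genes and 1.08% of all tested genes.

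For *Gal* the log2 fold change between genotypes was -0.45 in litter 1 (SE 0.14, adjusted p = 0.203) and 0.55 in litter 2 (SE 0.19, adjusted p = 0.122). For *Nts* it was -0.27 in litter 1 (SE 0.15, adjusted p = 0.481) and 0.76 in litter 2 (SE 0.41, adjusted p = 0.323). The difference between the litters was 1.004 for *Gal* (SE 0.25, adjusted p = 0.343) and 1.03 for *Nts* (SE 0.33, adjusted p = 0.4545, edgeR quasi-likelihood F-test of the interaction, Benjamini-Hochberg). By that test 0 of the 10 genes were called, beside 0.00978% of all tested genes, and 4 of the 10 were at an unadjusted p under 0.05, beside 8.05% of all tested genes. Of 12 markers of ganglion neurons, 8 had a negative and 4 a positive log2 fold change between genotypes in litter 1, where 2 were called lower, and 11 had a positive one in litter 2, where 5 were called higher. Their median was -0.42 in litter 1 and 0.44 in litter 2. The medians of other marker lists were also below 0 in litter 1 and above 0 in litter 2, at -0.30 and 0.34 for mesenchyme, -0.12 and 0.47 for blood, -0.37 and 0.04 for endothelium, and -0.05 and 0.49 for neural crest glia. The difference between the litters was positive for 12 of 12 ganglion, 6 of 6 mesenchyme, 6 of 6 blood, 4 of 4 endothelium and 5 of 6 glial markers, beside 48.69% of all tested genes, and none of these markers passed the interaction test. The part of these cells in the values of *Gal* and *Nts* was not tested beyond the ganglion covariate. The controls were Dot1lfl/fl in litter 1 and Dot1lfl/+ in litter 2. A part of this allele difference in the reversal cannot be told apart from a litter difference of the genotype effect. The summed level of the ganglion markers was 664 to 809 CPM in controls and 485 to 582 CPM in *Dot1l*-cKO embryos of litter 1, and 298 to 315 CPM against 356 to 394 CPM in litter 2. Over both litters the log2 fold change of *Gal* was -0.12 (SE 0.17) and 0.04 (SE 0.12) with the ganglion markers as a covariate, and that of *Nts* was 0.04 (SE 0.19) and 0.21 (SE 0.17), none of which passed.

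The remaining precursors were low and their genotypes overlapped in both litters. *Calca* (ENSMUSG00000030669.13, chr7:114631478-114636357), whose transcripts encode calcitonin or CGRP, ranged from 1.31 to 1.97 CPM in controls and from 1.47 to 3.38 CPM in *Dot1l*-cKO embryos (log2 fold change 0.38, SE 0.21, adjusted p = 0.320). *Grp* (ENSMUSG00000024517.16), the precursor of gastrin-releasing peptide, a signal of itch in the adult dorsal horn, ranged from 0.259 to 1.08 CPM in controls and from 0.416 to 1.12 CPM in *Dot1l*-cKO embryos (log2 fold change 0.16, SE 0.23, adjusted p = 0.733). *Cck* (ENSMUSG00000032532.7, chr9:121489824-121495694), the precursor of cholecystokinin, ranged from 0.196 to 0.528 CPM in controls and from 0.233 to 0.449 CPM in *Dot1l*-cKO embryos (log2 fold change 0.04, SE 0.30, adjusted p = 0.961). With 12 to 28 counts of *Cck* per embryo, only a large difference was detectable at this depth.

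**Figure D2:**
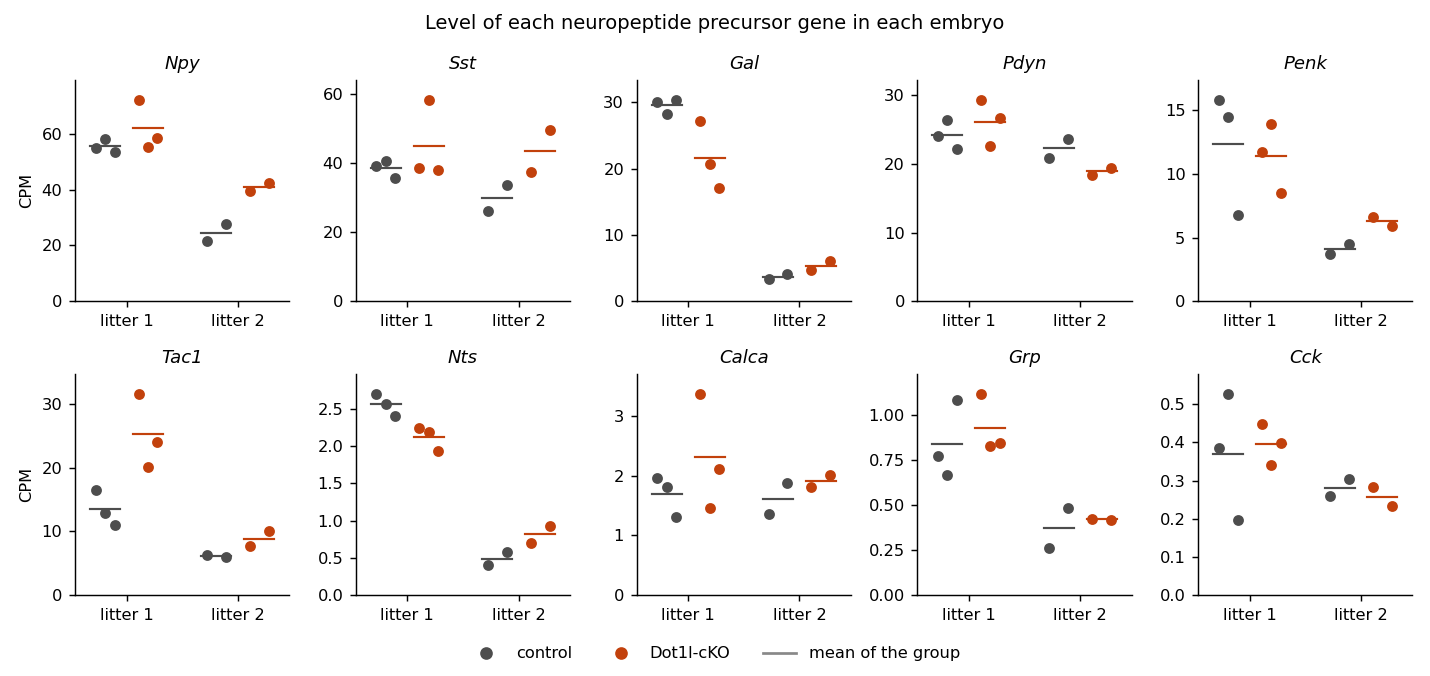
CPM of each gene in each embryo (grey controls, orange *Dot1l*-cKO, bars at the mean of each group of a litter), 1 panel per gene with its own axis from 0. *Tac1* is higher in every *Dot1l*-cKO embryo than in the controls of its litter, and *Gal* falls from 28.2 to 30.3 CPM in controls of litter 1 to 3.29 and 4.05 CPM in controls of litter 2.

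**Figure D3:**
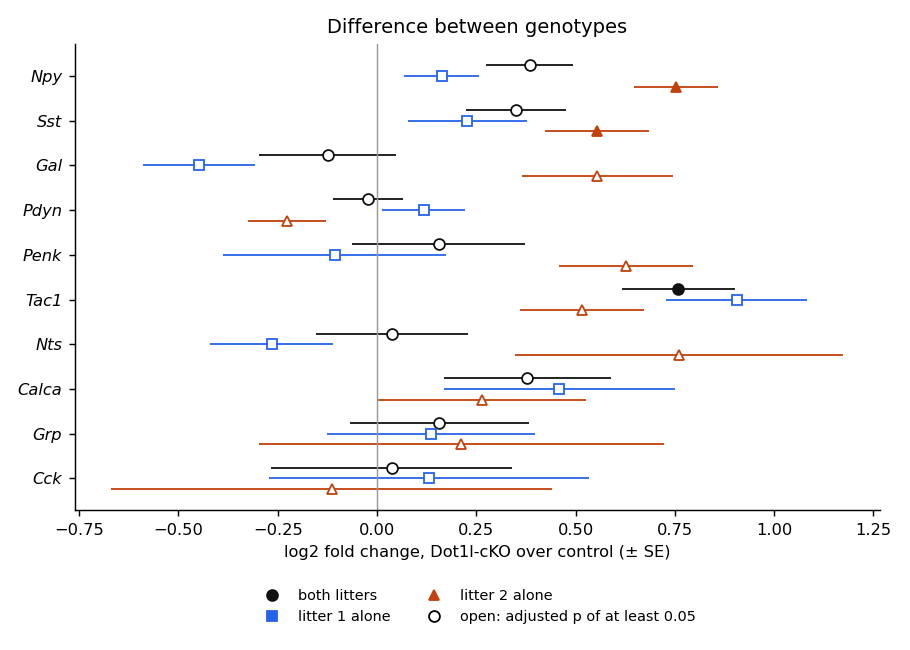
Log2 fold change of *Dot1l*-cKO over control for each gene with its SE, in both litters together (black), litter 1 alone (blue) and litter 2 alone (orange), filled where the adjusted p was below 0.05. *Tac1* is filled over both litters at 0.76, *Npy* and *Sst* are filled in litter 2 alone at 0.75 and 0.55, and *Gal* and *Nts* lie on opposite sides of 0 in the litters.

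The second comparison was between the litters, and here more of the precursor genes passed. All 10 had a lower fitted level in litter 2, and 7 of the 10 passed as lower, beside 17.8% of all tested genes, with 0 of the 10 higher, beside 16.9%. The median log2 fold change from litter 1 to litter 2 was -1.02 over the 10 genes and -0.02 over all tested genes. *Gal*, *Nts*, *Tac1*, *Penk*, *Grp* and *Npy* were lower in all 4 embryos of litter 2 than in all 6 of litter 1, which was the case for 6 of the 10 genes and 11.6% of all tested genes. The controls of the litters carried different numbers of floxed alleles, so in controls litter and allele number cannot be told apart. Among *Dot1l*-cKO embryos, those of litter 2 stood apart from those of litter 1 in sex-linked genes, so there litter and sex cannot be told apart. The comparison over both genotypes carries both limits in part.

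*Gal* fell most, 5.56-fold (log2 fold change -2.47, SE 0.19, adjusted p = 1.2e-06, edgeR quasi-likelihood F-test, Benjamini-Hochberg). *Nts* fell 3.53-fold (-1.82, SE 0.21, adjusted p = 1.9e-05) and *Tac1* 2.51-fold (-1.33, SE 0.15, adjusted p = 1.7e-05). *Penk* fell 2.30-fold (-1.20, SE 0.23, adjusted p = 0.0011), *Grp* 2.25-fold (-1.17, SE 0.24, adjusted p = 0.0018) and *Npy* 1.84-fold (-0.88, SE 0.12, adjusted p = 5.4e-05). The change of *Pdyn* was the smallest that passed, at 1.23-fold (-0.29, SE 0.09, adjusted p = 0.0225), and it did not pass in controls alone or without both *Dot1l*-cKO embryos of litter 2 (-0.12, adjusted p = 0.507). In the 10 fits without a single embryo its log2 fold change was -0.37 to -0.24, and it passed in 8 of them. *Sst* (-0.20, SE 0.13), *Cck* (-0.50, SE 0.32) and *Calca* (-0.18, SE 0.22) did not pass.

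In controls alone, which carry no transgene, 6 of the 10 passed as lower in litter 2, beside 12.9% of all tested genes. *Gal* had the smallest p of all 19336 genes tested there, with a log2 fold change of -3.01 (SE 0.12, 8.08-fold, adjusted p = 1.6e-07). *Nts* (-2.39), *Penk* (-1.59), *Npy* (-1.18), *Tac1* (-1.12) and *Sst* (-0.36, adjusted p = 0.0282) also passed, and *Grp* missed the threshold (-1.21, adjusted p = 0.0524). In *Dot1l*-cKO embryos alone 7 of the 10 passed as lower, beside 9.70% of all tested genes, among them *Gal* (-2.01, adjusted p = 0.00218), *Tac1* (-1.51), *Nts* (-1.37), *Grp* (-1.14) and *Pdyn* (-0.47, adjusted p = 0.0264). That count ranged from 2 to 7 when 1 of the 5 embryos was left out, with 4 without *Dot1l*-cKO embryo 1, 2 without embryo 4 and 3 without embryo 5.

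**Figure D4:**
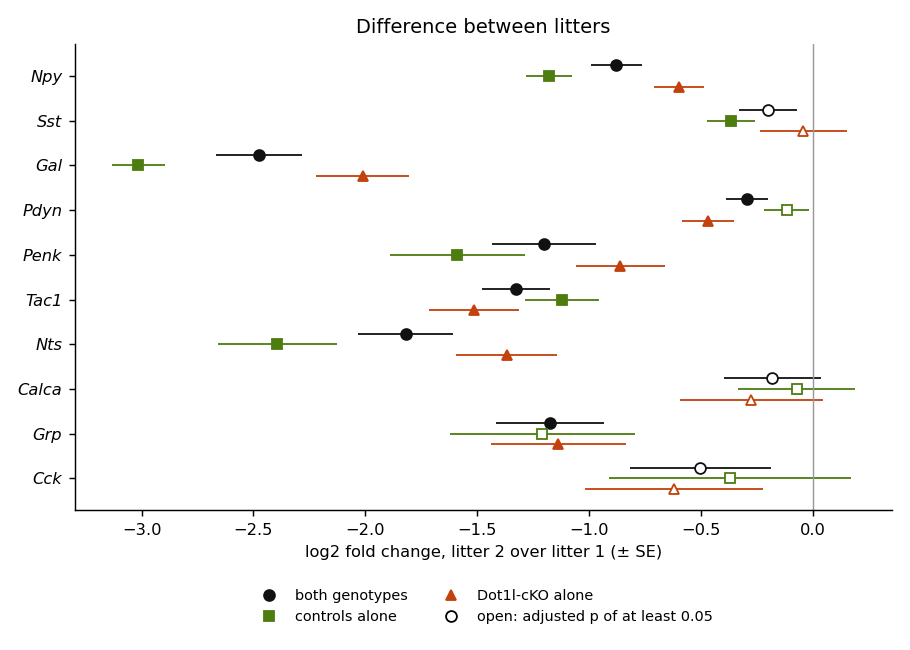
Log2 fold change of litter 2 over litter 1 for each gene with its SE, in both genotypes (black), controls alone (green) and *Dot1l*-cKO alone (orange), filled where the adjusted p was below 0.05. Every value lies below 0, and *Gal* is the farthest at -2.47, -3.01 and -2.01.

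Markers of other cells moved with the litters as well. Of 12 markers of ganglion neurons, 8 were lower in litter 2, led by *Trpv1* (log2 fold change -3.64), *Avil* (-1.78), *Scn10a* (-1.47) and *Runx1* (-1.45), and their median was -0.70. All 5 progenitor markers were higher, among them *Hes5* (0.95) and *Nes* (0.81), and their summed level was 1664 to 2090 CPM in litter 1 and 2607 to 2775 CPM in litter 2. Among the globins, the embryonic genes *Hba-x* (1.51) and *Hbb-y* (0.87) were higher and *Hbb-bs* (-0.78) was lower. With the ganglion markers as a covariate, 3 of the 10 precursor genes passed as lower, *Tac1* (-1.71, adjusted p = 0.00418), *Gal* (-1.55, adjusted p = 0.00352) and *Pdyn* (-0.71, adjusted p = 0.00996). The other values were -1.09 for *Cck*, -1.02 for *Nts*, -1.02 for *Grp*, -0.59 for *Penk*, -0.55 for *Calca*, -0.46 for *Npy* and 0.24 for *Sst*. The values of *Tac1*, *Pdyn*, *Cck* and *Calca* were thus farther from 0 than without the covariate, and those of *Gal*, *Nts*, *Grp*, *Penk* and *Npy* nearer. The summed ganglion markers did not overlap between the litters, at 485 to 809 CPM in litter 1 and 298 to 394 CPM in litter 2. This fit therefore separates litter and ganglion content poorly. The SE was 0.12 without and 0.20 with the covariate for *Npy*, and 0.13 and 0.24 for *Sst*. Over all tested genes the calls between litters fell from 6858 to 2201 in the same fit. The part of progenitor RNA in these differences was not tested.

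**Figure D5:**
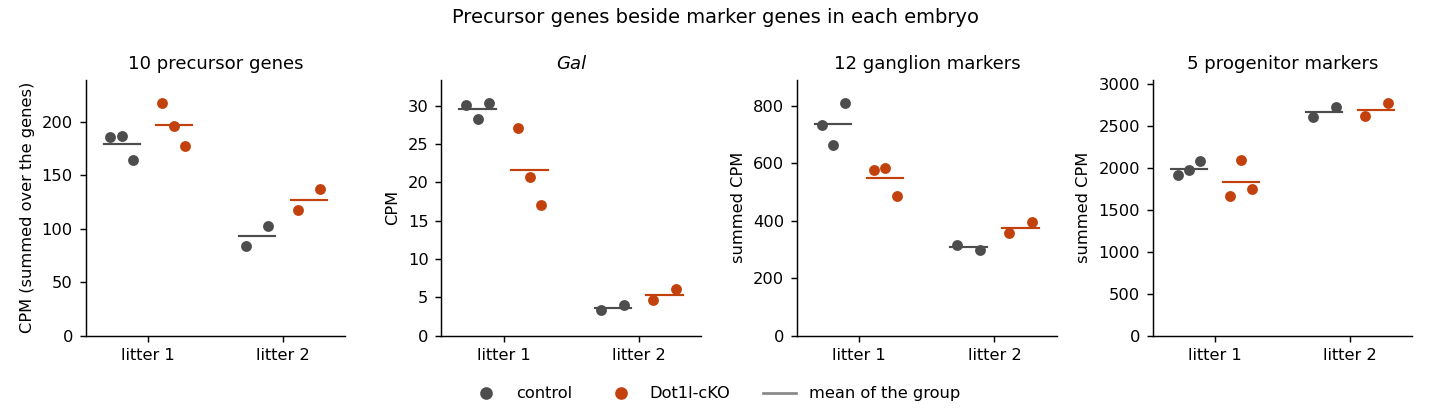
From left to right, summed CPM of the 10 precursor genes, CPM of *Gal*, summed CPM of 12 ganglion neuron markers and summed CPM of 5 progenitor markers, with 1 point per embryo, the mean of each group as a bar and each axis from 0. *Gal* and the ganglion markers are lower in *Dot1l*-cKO than in controls of litter 1 and higher in litter 2, and the progenitor markers are higher in litter 2.

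The other genes of peptide signalling were taken from lists. Of 50 other neuropeptide precursors, 28 passed the expression filter and 9 had at most 3 counts in every embryo, among them *Oxt*, *Kiss1* and *Ucn*. In *Dot1l*-cKO 3 of the 28 rose and 0 fell, namely *Pthlh* (log2 fold change 0.98), *Vgf* (0.76), which encodes a granin-like precursor, and *Pnoc* (0.37), the precursor of nociceptin. Their median was 0.26. Between litters 7 of the 28 were lower in litter 2, among them *Calcb* (-1.16), *Agrp* (-0.76), *Npff* (-0.69), *Vgf* (-0.68) and *Adcyap1* (-0.56), and *Vip* (1.35) was higher.

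Of 33 receptor genes, 29 were tested, and 2 rose in *Dot1l*-cKO while 0 fell, with a median log2 fold change of 0.21. Both encode receptors of neuropeptide Y. *Npy5r* had a mean of 2.59 CPM in *Dot1l*-cKO and 0.945 CPM in controls (log2 fold change 1.55, SE 0.21, adjusted p = 0.00459), and *Npy1r* a mean of 11.35 CPM against 7.37 CPM (0.59, SE 0.15, adjusted p = 0.0461). Between litters 12 of the 29 were lower in litter 2, led by *Calcr* (-3.27), *Npy5r* (-2.05), *Cckbr* (-1.20), *Npy1r* (-1.19), *Sstr1* (-1.02) and *Galr1* (-0.79), and 2 were higher, *Sstr2* (0.39) and *Sort1* (0.17).

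Of 23 genes for processing and release of peptides, 0 passed between genotypes (edgeR quasi-likelihood F-test, Benjamini-Hochberg). Between litters 10 of the 23 were lower in litter 2, among them *Ece2* (-0.77), *Pcsk2* (-0.63), a prohormone convertase, *Cadps2* (-0.49), *Ptprn* (-0.40), *Ptprn2* (-0.34) and *Cpe* (-0.30), carboxypeptidase E, and *Cpd* (0.20) was higher. These changes were smaller than those of *Gal*, *Nts* and *Tac1*.

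Transcription factors and transmitter genes of the dorsal horn were counted in 2 further lists. Of 15 genes of inhibitory neurons, 1 rose in *Dot1l*-cKO, *Gbx1* (log2 fold change 0.50), and of 12 genes of excitatory neurons 2 rose, *Lmx1b* (0.36) and *Prrxl1* (0.32). Between litters 9 of the 15 inhibitory genes were higher in litter 2, among them *Ptf1a* (1.67), *Prdm13* (1.33), *Gbx2* (0.68) and *Lhx1* (0.44), and 3 were lower, *Rorb* (-0.75), *Gbx1* (-0.69) and *Gad1* (-0.28). Of the 12 excitatory genes 5 were lower, namely *Lmx1b* (-0.91), *Prrxl1* (-0.81), *Mafa* (-0.50), *Maf* (-0.45) and *Slc17a6* (-0.40). *Ptf1a* and *Prdm13* are known from progenitors and newborn neurons.

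Over the 10 embryos, with the mean of each litter taken off the log2 CPM, *Nts* and *Gal* varied together most among the 10 genes (Pearson's r = 0.89), followed by *Tac1* and *Calca* (r = 0.77) and *Npy* and *Nts* (r = 0.67), as a description over points that share litters and genotypes. Across all genes with a mean log2 CPM of at least 1, the closest to *Tac1* were *Baalc* (r = 0.99) and *Fgf12* (0.98), and the closest to *Npy* were *Mt1* (0.97) and *Prrxl1* (0.96). Among the closest to *Gal* was *Myadm* (0.94). For *Nts* they were *Gper1* (0.96) and *Arhgdia* (0.96), for *Sst* *Usf2* (0.97) and *Mrps28* (0.97), and for *Pdyn* *Prkag2* (0.96) and *Rimklb* (0.96). For *Penk* they were *Notum* (0.93) and *Cdk10* (0.93), and for *Calca* *Psmd12* (0.97) and *Zmat4* (0.97). *Grp* (*Exoc6* 0.93, *Klf8* 0.92) and *Cck* (*Tmem50a* 0.95, *Akr1b10* 0.92) rest on few counts.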

How the data were processed

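RNA-seq of 10 embryos at E12.5 was used, 5 controls and 5 *Dot1l*-cKO in 2 litters. The deposited values are raw read counts per gene, not normalized. To make them, the authors ran the snakePipes workflow, in which TrimGalore trimmed the reads, STAR aligned them to mm10, and featureCounts counted them on GENCODE M18. The strand setting is not given in the sources used here. The counts were made from polyA RNA without molecular identifiers, so they count reads and not molecules. The total counts bear on the counting error only, while the tests also measured the spread between embryos. Gene names, positions and exon lengths came from GENCODE M21 (GRCm38, the build of mm10), to which 54079 of 54146 identifiers matched. Each column name matched the label of 1 embryo, and no pair of embryos of a group agreed within sampling noise.

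With R 4.3.3 and edgeR 4.0.16, the counts were filtered with filterByExpr, normalized by TMM and tested with the quasi-likelihood test (package defaults) with genotype and litter in the model and Benjamini-Hochberg adjustment over all tested genes at 0.05. The SE of a log2 fold change was |log2 fold change| divided by √F. The same test was run within each litter, within each genotype and for the interaction. All embryos are separate samples by their labels, and p-values measure the spread between them. Replicate numbers were given in accession order and pair no samples. Alternatives used DESeq2 1.42.0, limma-voom (limma 3.58.1), other normalizations and filters, covariates, and fits without single embryos. The script was tested on simulated data. The 10 genes and the lists were chosen with earlier results of these data known. Genes of the lists were named where they passed, at most 6 per list and comparison by size of the log2 fold change, and the 2 genes closest to each of the 10 by Pearson's r. Genes named beyond this, where a direction held few calls or for the marker lists, were chosen after their values were seen. A few results of these lists and sequences are not reported here.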

Additional observations from a re-analysis of the deposited data

Results flagged for a closer look

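The genotype effect on *Gal* differed in direction between the litters, since all 3 *Dot1l*-cKO embryos of litter 1 were below all 3 controls and both of litter 2 above both controls. The difference between the within-litter log2 fold changes was 1.004 (SE 0.25), without passing the interaction test (adjusted p = 0.343, edgeR quasi-likelihood F-test, Benjamini-Hochberg). *Nts* showed the same reversal in every embryo, with a difference of 1.03 (SE 0.33, adjusted p = 0.4545). Both *Dot1l*-cKO embryos of litter 2 had high counts of *Ddx3y*, and the median log2 fold change of 12 ganglion markers was -0.42 in litter 1, with 4 of them positive, and 0.44 in litter 2, with 11 positive. The medians for mesenchyme, blood, endothelium and neural crest glia were likewise below 0 in litter 1 and above 0 in litter 2, with median differences between the litters of 0.64, 0.58, 0.43 and 0.58, beside 0.97 for the ganglion markers. The part of any of these in the reversal was not tested. The controls also carried different numbers of floxed alleles in the litters, which cannot be told apart from a litter difference of the genotype effect. Among the 20 groups of 5 embryos looked at, none had an embryo far from the others, but each group held both litters, whose difference widens the range, and the 2 or 3 embryos of a genotype within a litter are too few for this rule.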

How the results depend on the processing

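Over both litters the number of the 10 genes called higher in *Dot1l*-cKO was 1, and *Tac1* kept its direction in all 24 alternatives and its call in 17. Over all genes 591 of 19773 were called. The number among the 10 was 2 with DESeq2, 2 with the ganglion markers as a covariate, 3 with no expression filter, 0 with *Xist* as a covariate and 0 in litter 1 alone. Over all genes these fits called 1492 of 17980, 1338 of 19773, 2201 of 35244, 49 of 19773 and 12 of 19275. Among the 10 it was 2 in litter 2 alone, where 964 of 18786 genes were called, and 0 to 2 when 1 embryo was left out. With no litter term, that is without the litter as a block, it was 0, beside 0 of 18901 genes. In litter 1 alone no expression filter gave 1 gene higher and 1 lower, and leaving out 1 embryo gave 0 to 1 higher, with 1 without *Dot1l*-cKO embryo 2. In litter 2 alone no expression filter gave 5 higher, and leaving out 1 embryo gave 1 to 3. For the interaction no expression filter gave 3. The cause of these differences was not tested. Leaving out 1 embryo can leave 1 sample in an arm of litter 2, which is then assumed to vary like the others.

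Between litters, 7 genes were called lower and 3 with the ganglion markers as a covariate, *Gal*, *Tac1* and *Pdyn*, while calls over all 19773 genes went from 6858 to 2201. The summed level of these markers did not overlap between the litters, so that fit separates litter and ganglion content poorly. Over both genotypes the count of 7 became 6 without *Dot1l*-cKO embryo 4 or without *Dot1l*-cKO embryo 5. In *Dot1l*-cKO alone the count of 7 became 2 to 7 when 1 embryo was left out. *Gal* was called lower in all 22 alternatives, at log2 fold changes from -3.02 to -1.55.

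Values that had not passed changed sign in some settings, and none passed there. Between genotypes *Penk* was at -0.18 with *Xist* as a covariate, -0.11 without both *Dot1l*-cKO embryos of litter 2 and -0.11 in litter 1 alone. *Pdyn* was at 0.12, 0.11 and 0.12 in the same settings, and from -0.086 to 0.037 when 1 embryo was left out. *Cck* was at -0.046 with the ganglion markers as a covariate and -0.11 in litter 2 alone, and from -0.16 to 0.21 when 1 embryo was left out. *Nts* was at -0.10 with limma-voom, -0.10 with legacy = FALSE and -0.12 with no litter term. It was at -0.33 with *Xist*, -0.27 without both *Dot1l*-cKO embryos of litter 2 and -0.27 in litter 1 alone, and from -0.10 to 0.13 when 1 embryo was left out. *Gal* was at 0.038 with the ganglion markers as a covariate and 0.55 in litter 2 alone, and from -0.25 to 0.016 when 1 embryo was left out. Between litters *Sst* was at 0.24 with the ganglion markers as a covariate, and *Calca* from -0.29 to 0.0020 when 1 embryo was left out.

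No paired analysis was possible because the replicate numbers were given in accession order and pair no embryos. Depth limits *Cck*, *Grp* and *Nts* most, with 12, 13 and 20 counts in their lowest embryos.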
